A study of Mus musculus with 8 samples.

Results

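The mevalonate pathway and the first steps of the sterol branch were followed through 10 listed genes, from Acat2 at the acetyl-CoA end to Lss, which closes the first sterol ring system. Members were chosen by gene symbol in the array annotation, and the single-gene probe set of highest mean stood for each. Of the 10 genes, 9 had such a probe set, among 19934 genes in all, and Acat2 was not analysed here. The list runs 1 enzyme past squalene epoxidation, since Lss uses the epoxide that Sqle makes.

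RNA came from livers of male C57Bl/6 mice of 10 to 12 weeks on a normal chow diet, housed in cycles of 12 h light and 12 h dark and sampled 10 h after lights on (ZT10). The corepressors NCOR and SMRT both carried a mutated deacetylase-activating domain in the 4 NS-DADm samples. That domain binds HDAC3 and turns on its enzyme activity. The 4 WT samples carried neither mutation. As published, these are germline knock-in alleles, so cells other than hepatocytes carry them too. Each sample was hybridised to 1 Affymetrix array, and values are log2 intensities. The comparison asks which liver transcripts differ when neither corepressor can activate HDAC3.

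The mevalonate pathway joins acetyl-CoA units into mevalonate and turns it into isoprenoid diphosphates, the building blocks of cholesterol, ubiquinone, dolichol and protein prenyl groups. In liver, its genes are classic targets of SREBP2, a membrane-bound transcription factor that is released to the nucleus when sterols in the endoplasmic reticulum run low. SREBP2 binds sterol regulatory elements in their promoters, often together with the CCAAT-binding factor NF-Y.

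The sequences upstream of 3 members are shown because these genes had the largest differences between the groups (Hmgcs1 and Idi1) and the smallest (Mvk). They are from RefSeq on build GRCm38.p6, 5′ to 3′, with matches to a sterol regulatory element (TCACNCCAC) and to CCAAT in capitals, on either strand, so that CCAAT also appears as ATTGG. No match to one motif overlapped a match to the other. Hmgcs1 (250 bases before the start, chr13:119690101-119690350, plus strand), Idi1 (250 bases before the start, chr13:8885356-8885605, plus strand) and Mvk (the 190 bases between it and the neighbouring gene Mmab, chr5:114444074-114444263, plus strand) read:
Hmgcs1: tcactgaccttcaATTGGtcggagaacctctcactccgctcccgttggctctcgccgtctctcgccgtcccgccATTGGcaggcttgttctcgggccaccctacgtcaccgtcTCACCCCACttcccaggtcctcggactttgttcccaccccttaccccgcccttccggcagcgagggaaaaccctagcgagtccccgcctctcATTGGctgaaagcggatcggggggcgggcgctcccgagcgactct
Idi1: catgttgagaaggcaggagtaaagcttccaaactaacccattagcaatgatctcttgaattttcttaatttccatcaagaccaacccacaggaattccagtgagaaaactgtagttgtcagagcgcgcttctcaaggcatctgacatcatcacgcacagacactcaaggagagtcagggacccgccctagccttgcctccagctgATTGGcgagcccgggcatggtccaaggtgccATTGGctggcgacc
Mvk: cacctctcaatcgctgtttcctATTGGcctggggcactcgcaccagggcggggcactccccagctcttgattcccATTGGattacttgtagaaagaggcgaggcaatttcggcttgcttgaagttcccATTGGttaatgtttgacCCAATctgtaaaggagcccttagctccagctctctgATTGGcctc

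The Hmgcs1 sequence held 1 match to the sterol element, beginning 137 bases before the start, and 3 to CCAAT. Idi1 held 2 CCAAT matches and Mvk 5, and neither held a match to the sterol element as spelled here. Among 32851 windows of 250 bases before all starts in the same RefSeq table, 1.05% held the sterol element, 33.9% held CCAAT and 2.79% held it at least 3 times. Of the 10 listed genes 7 had an entry, with 8 windows in all because Pmvk had 2 starts; 1 window held the sterol element and 6 held CCAAT. Such a match describes letters in a window and not a bound site. Fdps, Fdft1 and Sqle had no entry.

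At the entry of the pathway, Hmgcs1 showed the widest gap between the groups. Hmgcs1 (Entrez Gene 208715, chr13:119690351-119708260) encodes the cytosolic synthase that makes HMG-CoA for sterols. Its log2 intensity was 12.42, 12.12, 12.10 and 11.28 in NS-DADm replicates 1 to 4, against 11.35, 11.28, 11.34 and 11.30 in WT replicates 1 to 4. The first 3 of these NS-DADm arrays lay above every WT array, while NS-DADm replicate 4 lay inside the narrow WT range, so the groups overlapped. The means were 11.98 ± 0.49 in NS-DADm and 11.32 ± 0.03 in WT livers (SD, n = 4 each). The log2 fold change of 0.66, with an SE of 0.19 and a 95% confidence interval of 0.24 to 1.08, did not pass the limma test over all genes (adjusted p = 0.263). Without NS-DADm replicate 4 the difference was 0.90 (limma adjusted p = 0.00402). Leaving out the lowest NS-DADm array raises a difference by construction, for Hmgcs1 and for the genes below. Omitting NS-DADm replicate 1, 2 or 3 instead gave 0.52, 0.62 and 0.62 (limma adjusted p = 0.53, 0.49 and 0.48).

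The kinases and the decarboxylase that turn mevalonate into isopentenyl diphosphate had log2 fold changes from 0.04 to 0.41. Whether these values are unequal was not tested. Mvk (Entrez Gene 17855), which adds the first phosphate to mevalonate, had 9.20, 9.36, 9.20 and 8.81 in NS-DADm against 9.14, 9.21, 9.12 and 8.96 in WT livers. Its highest and its lowest value both came from NS-DADm arrays, and its log2 fold change was 0.04 (SE 0.11, adjusted p = 0.979). That value turned to -0.035 when NS-DADm replicate 2 was left out and to -0.012 when WT replicate 4 was. Omitting NS-DADm replicate 1, 3 or 4 gave 0.018, 0.017 and 0.15 in turn, and omitting WT replicate 2 gave 0.07. Pmvk (Entrez Gene 68603), the next kinase, had 9.62, 9.48, 9.25 and 8.99 in NS-DADm against 8.89, 9.06, 9.02 and 8.88 in WT livers. Here 3 NS-DADm arrays exceeded all WT arrays and NS-DADm replicate 4 lay between WT values. Its log2 fold change was 0.37 (SE 0.12, adjusted p = 0.323), or 0.49 without NS-DADm replicate 4 (limma adjusted p = 0.0493). Omitting NS-DADm replicate 1 instead gave 0.28 for Pmvk (limma adjusted p = 0.65). Mvd (Entrez Gene 192156), the decarboxylase, had 9.46, 9.26, 8.87 and 8.55 in NS-DADm against 8.70, 8.83, 8.72 and 8.24 in WT livers. WT replicate 4 lay well below the other 3 WT arrays for Mvd, and its log2 fold change was 0.41 (SE 0.19, adjusted p = 0.539), or 0.27 when NS-DADm replicate 1 was omitted.

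**Figure D1:**
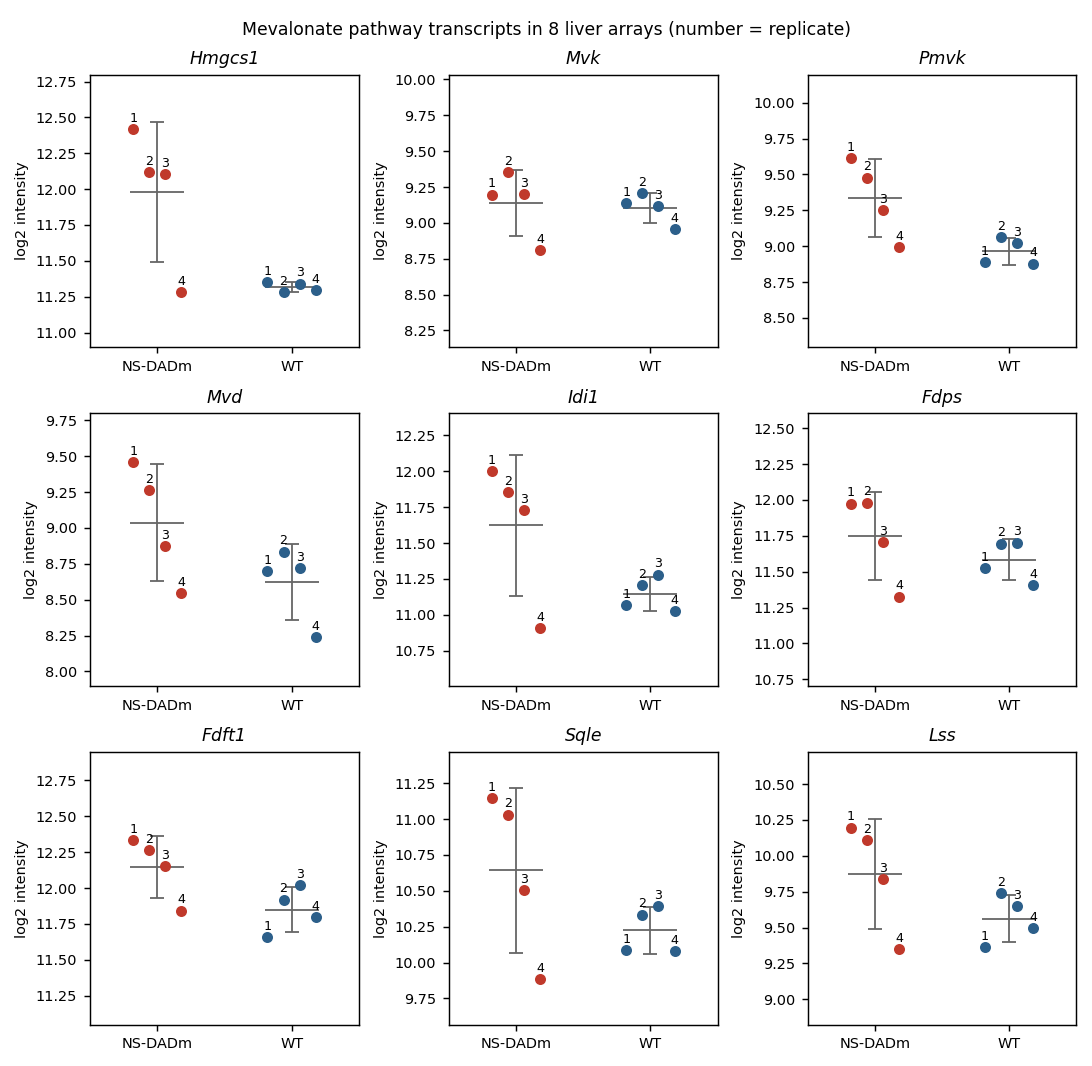
Log2 intensity (vertical axes, each spanning the same range) of 9 transcripts in 4 NS-DADm and 4 WT arrays; dots are arrays numbered by replicate, horizontal lines are group means and bars 1 SD. NS-DADm replicate 4 is the lowest NS-DADm array in all 9 panels, and in 8 panels the other 3 NS-DADm arrays lie above every WT array.

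Of the enzymes that build farnesyl diphosphate, Idi1 had the larger and Fdps the smaller difference. Idi1 (Entrez Gene 319554), the isomerase that converts isopentenyl into dimethylallyl diphosphate, had 12.00, 11.85, 11.73 and 10.91 in NS-DADm against 11.07, 11.20, 11.28 and 11.03 in WT livers. Its groups overlapped through NS-DADm replicate 4 alone, which lay below every WT array. The log2 fold change was 0.48 (SE 0.20, adjusted p = 0.468), or 0.72 without NS-DADm replicate 4 (limma adjusted p = 0.00547). Omitting NS-DADm replicate 1 instead gave 0.35 for Idi1 (limma adjusted p = 0.84). Idi1 was read by 2 probe sets that are annotated with the same transcripts, and both gave a log2 fold change of 0.48. Whether the differences of Idi1 and Fdps are unequal was not tested. Fdps (Entrez Gene 110196), farnesyl diphosphate synthase, had 11.97, 11.98, 11.71 and 11.33 in NS-DADm against 11.52, 11.70, 11.70 and 11.41 in WT livers. NS-DADm replicate 3 stood barely above the highest WT array, and the log2 fold change was 0.16 (SE 0.14, adjusted p = 0.825). Omitting NS-DADm replicate 1, 2 or 4 gave 0.089, 0.087 and 0.31 in turn, and omitting WT replicate 4 gave 0.11.

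The squalene and lanosterol steps followed the same arrangement of arrays. Fdft1 (Entrez Gene 14137), squalene synthase, had 12.34, 12.26, 12.15 and 11.84 in NS-DADm against 11.66, 11.92, 12.02 and 11.80 in WT livers. Its log2 fold change was 0.30 (SE 0.11, adjusted p = 0.406), and a second probe set gave 0.33. Sqle (Entrez Gene 20775), the oxygen-dependent epoxidase, had 11.15, 11.03, 10.50 and 9.88 in NS-DADm against 10.09, 10.33, 10.39 and 10.08 in WT livers. These NS-DADm values ran over 1.26 log2 units, the widest of the 9 members, from above all WT arrays to below them. The log2 fold change of Sqle was 0.42 (SE 0.23, adjusted p = 0.636). It was 0.25 with NS-DADm replicate 1 omitted and 0.67 with NS-DADm replicate 4 omitted. Lss (Entrez Gene 16987), lanosterol synthase, had 10.20, 10.11, 9.84 and 9.35 in NS-DADm against 9.37, 9.74, 9.65 and 9.50 in WT livers. NS-DADm replicate 4 and WT replicate 1 were the lowest arrays for Lss, and its log2 fold change was 0.31 (SE 0.16, adjusted p = 0.614). Omitting NS-DADm replicate 1 gave 0.20 and omitting NS-DADm replicate 4 gave 0.48.

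No member passed the threshold of 0.05 in limma's test with Benjamini-Hochberg adjustment, 0 of 9, where 0.271% of all genes tested did. All 9 log2 fold changes were above 0, as were 44.3% of those of all genes, and their median was 0.37, against -0.01 over all genes. An unadjusted p under 0.05 was reached by 4 members, Hmgcs1, Pmvk, Fdft1 and Idi1, all higher in NS-DADm livers, where 3.72% of all genes were higher at that level. In none of the 9 did all NS-DADm arrays lie beyond all WT arrays, which held for 5.63% of all genes in either direction. Without NS-DADm replicate 4, 3 of the 9 rose (Hmgcs1, Idi1 and Pmvk) where 0.296% of all genes were called higher, and the median of the 9 was 0.49. That array is the lowest NS-DADm array of all 9, so leaving it out raises each difference by construction. The members rise and fall together across arrays, so these counts are not 9 independent observations.

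**Figure D2:**
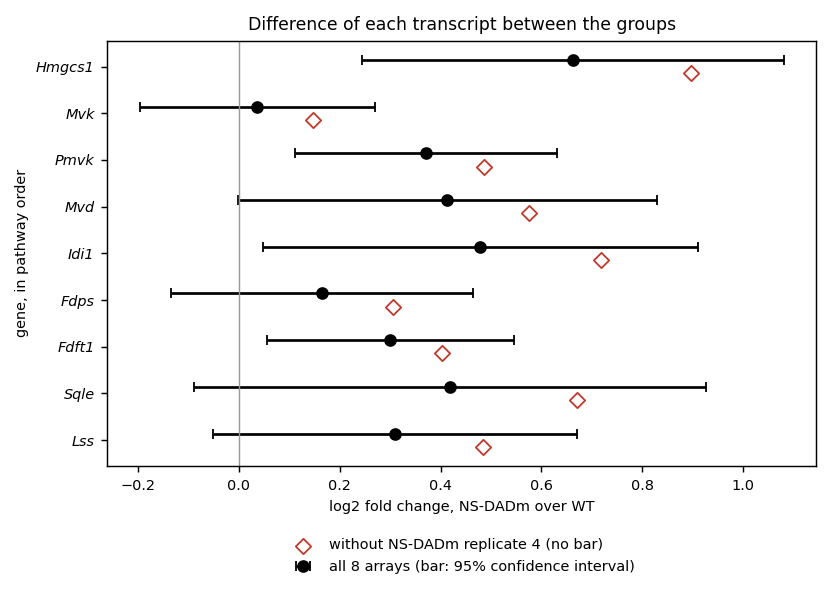
Log2 fold change of NS-DADm over WT livers (horizontal axis) for 9 genes in pathway order; filled circles use all 8 arrays with 95% confidence intervals from limma, open diamonds leave out NS-DADm replicate 4. The filled circles run from 0.04 for Mvk to 0.66 for Hmgcs1, and each diamond lies to the right of its circle.

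The members varied more among NS-DADm than among WT arrays, in part through NS-DADm replicate 4, the lowest NS-DADm array of all 9. All 9 had a larger SD over the 4 NS-DADm arrays than over the 4 WT arrays, whereas this held for 36.6% of all genes. The ratio of NS-DADm to WT SD had a median of 2.30 over the members and 0.77 over all genes. It was highest for Hmgcs1, at 14.1, with a range of 1.13 log2 units over the NS-DADm arrays and 0.07 over the WT arrays. Idi1 followed with 4.15 and Sqle with 3.54, while Fdft1 had 1.38 and Mvd 1.54. Apart from replicate 4, the NS-DADm arrays of Idi1 ran from 11.73 to 12.00, against 11.03 to 11.28 in WT. Those of Fdft1 ran from 12.15 to 12.34, a narrower range than 11.66 to 12.02 in WT. Those of Hmgcs1 still ran wider, from 12.10 to 12.42 against 11.28 to 11.35. SD ratios without replicate 4 were not computed. The SEs of the members' log2 fold changes, 0.11 to 0.23, exceeded the median of all genes, 0.07.

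The NS-DADm arrays were ordered alike from gene to gene. NS-DADm replicate 4 was the lowest NS-DADm array for 9 of 9 members, as for 38.1% of all genes, and it lay below every WT array for 5 of them, Mvk, Idi1, Fdps, Sqle and Lss. NS-DADm replicate 1 was the highest NS-DADm array for 7 of 9 members, the exceptions being Mvk and Fdps, against 30.4% of all genes. The mean of the 9 members was 10.93, 10.83, 10.60 and 10.11 in NS-DADm replicates 1 to 4, against 10.20, 10.36, 10.36 and 10.13 in WT replicates 1 to 4. The lowest WT arrays for the mean, replicates 4 and 1, thus stood close to NS-DADm replicate 4. Of the 8 arrays, NS-DADm replicate 4 had no unusual median (7.43, in a range of 7.39 to 7.50). Its limma array weight was the lowest of its group (0.69, against 1.22 to 2.02), while WT replicate 4 had 0.44.

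**Figure D3:**
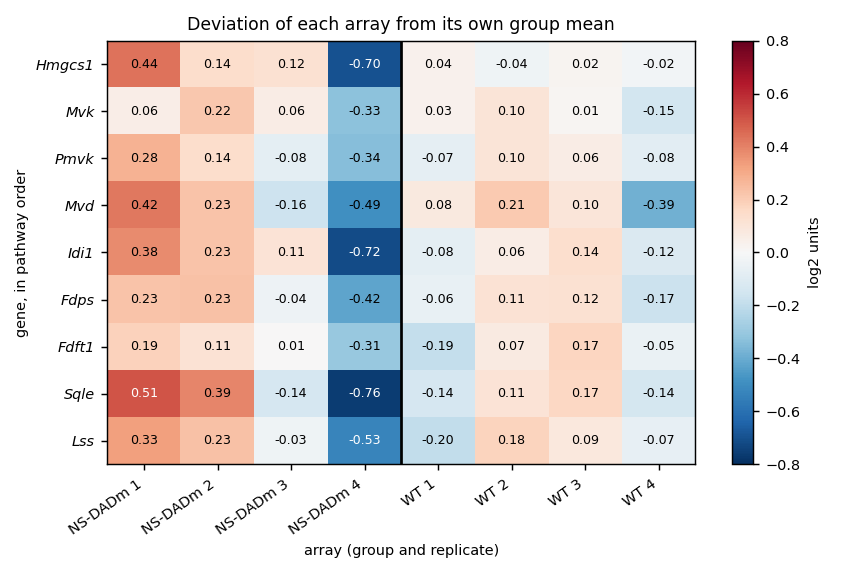
Deviation of each array from the mean of its own group, in log2 units (colour and printed value), for 9 genes in pathway order; NS-DADm arrays are left of the line and WT arrays right. NS-DADm replicate 4 is negative for every gene, down to -0.76 for Sqle, and Hmgcs1 is nearly flat across the WT arrays.

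Co-variation was measured on values with each group's mean removed, over the 8 arrays. The 36 pairs of members had a median Pearson r of 0.90 (0.72 to 0.99) and a median Spearman rho of 0.88 (0.50 to 1.0). An r above 0.8 was found in 83.3% of these pairs and in 2.12% of pairs of a member with 1 of the 19925 other genes, where the median r was 0.13. The exact two-sided permutation p of r, with arrays permuted within groups, ran from 0.0017, the smallest that 576 permutations can give, to 0.158, and from 0.0156 to 0.158 with Benjamini-Hochberg adjustment over the 36 pairs. For rho the exact permutation p ran from 0.0017 to 0.264, and from 0.0268 to 0.264 after that adjustment. All pairs share the same 8 arrays, and NS-DADm replicates 1 and 4 carry much of the variation.

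Each step was also set beside the next one in the pathway. Pmvk and Mvd had an r of 0.92 and the same order of centred values over the arrays (rho 1.0), and Sqle and Lss had an r of 0.97. Between Idi1 and Fdps r was 0.94, between Fdps and Fdft1 0.90, and between Fdft1 and Sqle 0.91. The 3 lowest values were those of Mvd with Idi1 (0.83), Mvk with Pmvk (0.80) and Mvk with Hmgcs1 (0.78). Differences between these correlations were not tested. When the 2 arrays farthest from the median of the earlier gene were left out, the 21 pairs among Pmvk, Mvd, Idi1, Fdps, Fdft1, Sqle and Lss had an r of 0.51 to 0.97, and the 15 pairs with Hmgcs1 or Mvk one of -0.36 to 0.46. With the 2 arrays chosen by the later gene instead, the values were 0.60 to 0.98 for the 21 pairs and -0.49 to 0.80 for the 15. This grouping of pairs was made after the values were seen, and the arrays left out differ between pairs. Hmgcs1 or Mvk is the earlier gene in all 15 of its pairs, so the first choice of arrays always follows that gene. The median r of the 36 pairs was 0.75 without NS-DADm replicate 4 and 0.73 over the WT arrays alone, where n was only 4.

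The members also differed in how far they moved when the others did. For each unit of log2 change in the mean of the other 8 members, Sqle changed by 1.64 units, Idi1 by 1.32, Hmgcs1 by 1.15 and Mvd by 1.13. Lss moved by 1.05 and Fdps by 0.85, while Pmvk at 0.71, Fdft1 at 0.60 and Mvk at 0.54 moved least. These slopes use group-centred values over 8 arrays and are given as a description.

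Among the enzymes after lanosterol, Cyp51 and Msmo1 had the largest differences, and the later steps lay on both sides of 0. Of 12 listed genes 10 were measured, none passed the limma test, and 7 were above 0 with a median log2 fold change of 0.08. Cyp51, the lanosterol demethylase, had 11.20, 11.16, 10.98 and 10.32 in NS-DADm against 10.49, 10.74, 10.70 and 10.57 in WT livers. The arrays stood in the arrangement seen for Lss, with a log2 fold change of 0.29 (limma adjusted p = 0.654), or 0.49 without NS-DADm replicate 4 (adjusted p = 0.0306). Msmo1, the next oxidase, was at 0.27 (limma adjusted p = 0.729), or 0.47 without that array (adjusted p = 0.046). For both genes NS-DADm replicate 4 was the lowest NS-DADm array, so leaving it out raises their differences by construction. Ebp, a sterol isomerase, was at -0.15 (limma adjusted p = 0.411) and Tm7sf2, a sterol reductase, at -0.15 (adjusted p = 0.733).

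Of 10 listed genes of SREBP2 control and other SREBP2 targets 7 were measured, none passed, and 4 were above 0 with a median of 0.03. Insig2, which retains the SREBP escort in the endoplasmic reticulum, was at 0.28 (limma adjusted p = 0.59) and Stard4, a sterol carrier, at 0.24 (adjusted p = 0.576). Scap, the escort itself, was at -0.11 (limma adjusted p = 0.621). Srebf2, which encodes SREBP2, had 9.70, 9.55, 9.32 and 9.22 in NS-DADm against 9.40, 9.43, 9.37 and 9.21 in WT livers. Its NS-DADm arrays ran in the same order as those of most members, and its log2 fold change was 0.10 (limma adjusted p = 0.89). Insig1, the other retention protein, had a log2 fold change of 0.03 and is named although it lies outside the naming rule.

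The branches that leave the pathway at farnesyl diphosphate had small differences. Of 8 listed genes 7 were measured, none passed, and the median was 0.04. Coq2, of ubiquinone synthesis, was at 0.12, Ggps1, which makes geranylgeranyl diphosphate, at -0.10, Fnta, a protein prenyltransferase subunit, at 0.09 and Pdss2, of the ubiquinone side chain, at 0.05. Their limma adjusted p lay between 0.685 and 0.937. Over the 8 group-centred arrays the mean of this list had an r of 0.17 with the mean of the members, where that of the later sterol enzymes had 0.98 and that of SREBP2 control and targets 0.79.

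Of 6 listed paralogs and ketogenic genes 4 were measured and none passed, with a median of 0.03. Acat1, the mitochondrial thiolase, was at 0.03, and Acat3, which lies beside Acat2 on chromosome 17 and resembles it, at 0.04. Bdh1, which makes the ketone body hydroxybutyrate, was at -0.09. Idi2, the Idi1 paralog on chromosome 13, was at 0.05 with a mean near the low end of the intensities.

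**Figure D4:**
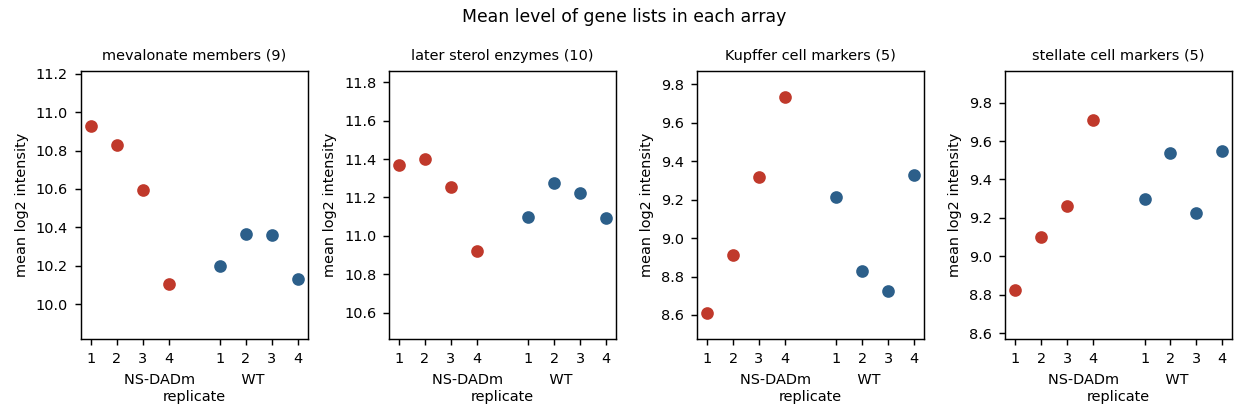
Mean log2 intensity (vertical axes of equal span) of 4 gene lists in each array, with NS-DADm arrays left and WT arrays right and the number of genes in brackets. In NS-DADm livers the members and the later sterol enzymes are lowest in replicate 4, where Kupffer and stellate cell markers are highest.

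Kupffer, stellate and sinusoidal endothelial cell markers were lowest in NS-DADm replicate 1 and highest in NS-DADm replicate 4 among the NS-DADm arrays, where the members' mean was highest in replicate 1 and lowest in replicate 4. The mean of 5 Kupffer cell markers (Clec4f, Vsig4, Adgre1, Cd5l and Marco) was 8.61, 8.91, 9.32 and 9.74 in NS-DADm replicates 1 to 4, against 9.21, 8.83, 8.72 and 9.33 in WT replicates 1 to 4. This order is the reverse of that of the members' mean in the NS-DADm arrays, with an r of -0.95 over the 8 group-centred arrays. The mean of 5 stellate cell markers ran from 8.83 in NS-DADm replicate 1 to 9.71 in NS-DADm replicate 4, against 9.23 to 9.55 in WT livers, with an r of -0.89. For 5 sinusoidal endothelial markers the range was 9.11 to 9.75 in NS-DADm and 9.52 to 9.74 in WT livers, with an r of -0.78. Within the WT arrays the endothelial mean was highest in replicate 2 and lowest in replicate 1, and so did not run against the members there. The stellate mean ran against them only in part. It was 9.54 in WT replicate 2 and 9.55 in WT replicate 4, where the members' mean was 10.36 and 10.13. The summed linear intensity, 2 to the power of the log2 value, was 2394 to 5329 in NS-DADm and 2536 to 4308 in WT livers for the Kupffer cell markers. It was 4292 to 7681 in NS-DADm and 5477 to 6761 in WT livers for the stellate cell markers. It was 3350 to 5103 in NS-DADm and 4517 to 5368 in WT livers for the endothelial markers. Between the groups, all 5 endothelial markers were below 0 in NS-DADm over WT livers, with a median log2 fold change of -0.26 and 3 at an unadjusted p under 0.05 by limma (Stab2, Clec4g and Kdr), and the groups did not overlap for Clec4g. All 5 stellate markers were also below 0, with a median of -0.19 and 1, Reln, at an unadjusted limma p under 0.05. Of all 19934 genes, 1859 reached that unadjusted p in either direction, and the groups did not overlap for 5.63%. The 5 Kupffer markers were all above 0 (median 0.12) when every array was used. Their sign depended on NS-DADm replicate 4, the highest NS-DADm array for all 5. Once it was dropped, the Kupffer median became -0.10 and Marco alone stayed above 0, at 0.14. The stellate and endothelial medians were then -0.44 and -0.40. NS-DADm replicate 4 was also the highest NS-DADm array for every stellate and endothelial marker, so leaving it out lowers their values by construction. None of these 15 markers passed the limma test between the groups with all arrays. Without NS-DADm replicate 4, 67 of all 19934 genes were called lower, Kdr among them (limma adjusted p = 0.0426). No marker was at 0 since the arrays give every probe set an intensity.

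The 5 hepatocyte markers, among them Alb, had means of 13.73 to 13.75 in NS-DADm and 13.74 to 13.76 in WT livers, near the top of the scale, as in liver tissue. Cholangiocyte markers (4) had an r of 0.58 with the members, adipocyte markers (3) of 0.45 and neutrophil markers (4) of -0.06. The part of cell composition in the members' pattern was not tested. In such bulk samples fewer cells of a type and less RNA per cell cannot be told apart.

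The 10 genes outside the list whose group-centred values were most like the mean of the 9 members, by Pearson r over 8 arrays, were Cyp51 (0.98), Olfr883 (0.98), Fhod3 (0.97), Lancl3 (0.97), F11 (0.97), Adgrv1 (0.97), Rcan2 (0.96), Slc17a8 (0.96), Mmab (0.96) and Ftdc2 (0.95). Among these Rcan2 had 8.75, 8.69, 8.55 and 7.78 in NS-DADm against 7.76, 8.03, 7.97 and 7.87 in WT livers. The range of Rcan2 lay within those of the members, with a log2 fold change of 0.53 (limma adjusted p = 0.357). Without NS-DADm replicate 4, its lowest NS-DADm array, the value was 0.76. Rcan2 was picked for likeness to the members, which are also lowest there, so this rise follows from the choice and is no test. Mmab, whose annotated gene is separated from Mvk by the 190 bases printed above, had 9.21, 9.18, 9.10 and 8.78 in NS-DADm against 8.85, 8.95, 8.92 and 8.70 in WT livers. Its group-centred values had the same order over the 8 arrays as the members' mean (rho 1.0), and its log2 fold change was 0.22 (limma adjusted p = 0.528). Olfr883 and Ftdc2 lay near the low end of the intensities and varied far less between arrays than the members.

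Array medians ran from 7.39 to 7.50, and pairs of arrays correlated at 0.9928 to 0.9977 across probe sets. The labels do not say that each array stands for a separate animal, so the p-values reflect only how these arrays differ, and that variation may be technical. Precision is limited by 4 arrays a group. The mutations themselves were not read from the arrays, so the genotypes rest on the labels.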

How the data were processed

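Values were the authors' deposited log2 intensities for 28270 probe sets on 8 arrays. The log2 scale was read from the values, which run from 3.43 to 14.37. The tools named per the submitters' processing notes are Partek and RMA; their versions, order and settings are not given in the labels. RMA normalizes between arrays and summarises probes, which can compress small differences. Probe sets were named from the platform annotation (21780 with 1 gene, 1617 with several, 4873 unnamed), and symbols were updated by Entrez Gene identifier, matched for 19852 of 19934 genes. Each gene was read by its highest-mean single-gene probe set, unfiltered and without a pseudocount.

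NS-DADm and WT samples, grouped by title, were fitted using limma 3.58.1 under R 4.3.3 (lmFit, eBayes, two-sided, Benjamini-Hochberg over all genes, threshold 0.05). The steps were tested on simulated data. Co-variation used group-centred values in Python 3.11.15 with numpy 2.4.6. From other lists up to 4 genes with the largest absolute difference were named, and 10 genes by likeness. The members and lists were chosen with earlier results of these data known. Alternatives were other probe set rules, filters, normalizations, variance models, array weights, a replicate block and each array left out.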

Additional observations from a re-analysis of the deposited data

How the results depend on the processing

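Over 9 processing alternatives no member passed the threshold, the lowest adjusted p of a member being 0.0933 (Hmgcs1 with array weights), and the median log2 fold change of the members was 0.37 to 0.40. Leaving out 1 array at a time gave a median of 0.25 to 0.49, with 0 to 3 members called and 0 to 2 of the 28 other sterol and isoprenoid genes. The counts of 3 and 2 came from leaving out NS-DADm replicate 4, which removes the lowest NS-DADm array of every member; the 2 were Cyp51 and Msmo1. The log2 fold change of Mvk turned to -0.035 without NS-DADm replicate 2 and -0.012 without WT replicate 4; the cause was not tested. Over all genes 54 were called, against 109 with array weights, 105 with the replicate block and 13 (without WT replicate 2) to 126 (without NS-DADm replicate 4) with 1 array left out. The higher share was 59 of 126 without NS-DADm replicate 4, against 32 of 54.

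The median pair correlation of the members was 0.90, against 0.96 in the 4 NS-DADm arrays alone, 0.73 in the 4 WT arrays alone, and 0.75 to 0.93 with 1 array left out. Replicate numbers are shared between the groups, but same-numbered arrays deviated together by r = 0.15, 0.05, -0.10 and 0.25, so the numbers were not taken as pairs. With the replicate block 0 members were called, and Hmgcs1 had a limma adjusted p of 0.132. The table has no detection calls, which leaves signal over background unknown.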
